A study of Mus musculus with 5 samples.

Results

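Exons of kinase cascade and protein phosphatase genes were followed in the left ventricle of mice given streptozotocin, a toxin of the insulin-producing beta cells that is used to make mice diabetic. The exons are cassette exons, which a transcript either holds or skips. They were chosen by gene symbol, from genes whose symbols start with Map2k, Map3k, Map4k, Mapk, Pik3, Prka or Ppp1 to Ppp6. No measured value enters this rule, but it was set with earlier results of these data known. Of the 6331 exons held by all 6 deposited tables, 51 exons in 38 genes met this rule. C57BL/6 mice were injected with streptozotocin at 70 mg/kg in citrate buffer (STZ, 3 samples) or with the buffer alone (Control, 2 samples), on 5 successive days from an age of 8 weeks. Hearts were taken at 12 weeks of age. No allele or transgene is named for either group, and the blood glucose of the animals is not given in the sources used here. The libraries are called Control A and B and STZ A, B and C. Their groups follow from the group sizes alone, and their codes form 2 series that split as the groups do, so treatment and the series of codes cannot be told apart.

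Protein kinases add phosphate to other proteins and protein phosphatases remove it. In MAP kinase cascades a Map3k kinase, which may have a Map4k kinase upstream of it, activates a Map2k kinase. The Map2k kinase activates a MAP kinase such as p38 or JNK. PI3 kinases phosphorylate lipids, PKA answers cyclic AMP and AMPK answers low cellular energy. Phosphatase catalytic subunits are few and pair with many regulatory subunits, which set their targets and place in the cell, and in heart muscle these enzymes act on calcium handling, contraction and growth.

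The measure is Psi, the share of a gene's transcripts that include the exon, as estimated by the authors with MISO from reads. Informative reads are those that fit only the including isoform (inclusion-only) or only the skipping isoform (exclusion-only). Exons with 10 or more informative reads in each library were tested, and an exon was called where limma's moderated test on the logit of Psi gave an adjusted p under 0.05 over all 4769 tested exons. Median informative reads per tested member were 283 and 370 in Control A and B and 241, 169.5 and 162 in STZ A, B and C. For all tested exons they were 154 and 192 in Control and 118, 102 and 94 in STZ. In both sets every STZ library lay below both Control libraries, so treatment and depth cannot be told apart. The labels do not state that samples of a group are separate animals, and the p-values measure the spread between these samples.

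The sequences that follow are those of called coding exons whose mean Psi moved by 0.05 or more, of the pair of related calcineurin exons, which were not called, and of a 31-nt exon of Ppp1r12a, which is shown for its effect on the frame and could not be tested. They are the sense strand, 5′ to 3′, from GENCODE M21 transcripts (build GRCm38), matched to the deposited exons by exon and intron lengths, and the coordinates are those of the deposited tables (mm9). Capitals mark the bases that differ between the Ppp3ca and Ppp3cb exons and, in Prkab1 and Ppp1r12a, the base left over after the last whole codon.
Map4k4 9 nt, chr1:40065176-40065184, plus strand: ggagaagtg
Map4k4 231 nt, chr1:40060602-40060832, plus strand: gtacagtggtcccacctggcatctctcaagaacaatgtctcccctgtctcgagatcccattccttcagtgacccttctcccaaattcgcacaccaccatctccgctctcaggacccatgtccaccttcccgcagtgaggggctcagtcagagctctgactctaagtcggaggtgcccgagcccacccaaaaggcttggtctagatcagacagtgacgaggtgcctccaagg
Mapk12 48 nt, chr15:88965553-88965600, minus strand: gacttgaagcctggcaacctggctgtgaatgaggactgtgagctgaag
Prkab1 115 nt, chr5:116470013-116470127, minus strand: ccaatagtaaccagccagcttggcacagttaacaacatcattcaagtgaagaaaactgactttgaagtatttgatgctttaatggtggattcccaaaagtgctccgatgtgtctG
Ppp1cc 105 nt, chr5:122621831-122621935, plus strand: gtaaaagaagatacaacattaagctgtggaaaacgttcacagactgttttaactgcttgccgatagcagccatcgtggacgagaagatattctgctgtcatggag
Ppp1r12a 31 nt, chr10:107710451-107710481, plus strand: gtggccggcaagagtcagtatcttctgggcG
Ppp2r5c 117 nt, chr12:111812955-111813071, plus strand: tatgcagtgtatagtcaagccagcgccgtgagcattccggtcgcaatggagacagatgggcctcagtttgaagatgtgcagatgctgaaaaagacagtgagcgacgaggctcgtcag
Ppp3ca 30 nt, chr3:136594975-136595004, plus strand: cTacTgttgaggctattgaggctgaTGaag
Ppp3cb 30 nt, chr14:21322469-21322498, minus strand: cCacAgttgaggctattgaggctgaAAaag

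Of the 51 exons, 44 in 34 genes had the reads to be tested. In STZ, 15 of the 44 in 14 genes changed, which is 34.1%, where 15.0% of all tested exons did. Median informative reads per tested member were above those of all tested exons in every library, and their part in these shares was not tested. Psi fell for 10 of the 15 and rose for 5. Of the 713 called among all 4769 tested exons, 482 fell (10.1% of all tested) and 231 rose (4.84%). The change of mean Psi was at least 0.10 for 9 of the 15, and for 485 of the 713 (10.2% of all tested). Of these 9 exons 8 fell, and the directions of the 485 were not counted. In 25 of the 44 exons the STZ and Control values did not overlap, 14 lower and 11 higher in STZ, where 42.9% of all tested exons were so. The median change over the 44 was -0.0025 in Psi and that of all tested exons -0.01, and single changes ran from -0.382 to 0.3. The count of 15 fell to 6 when either Control A or Control B was left out, to 9 when STZ A was left out, to 7 for STZ B and to 8 for STZ C. Some exons called without Control A, Control B or STZ A were not among the 15. With a Control library left out, the lone remaining one is assumed to vary like the STZ libraries. The calls of Ppp1cc, Ppp6r3 (148 nt) and Pik3c2a (88 nt) held in each of these 5 fits.

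**Figure D1:**
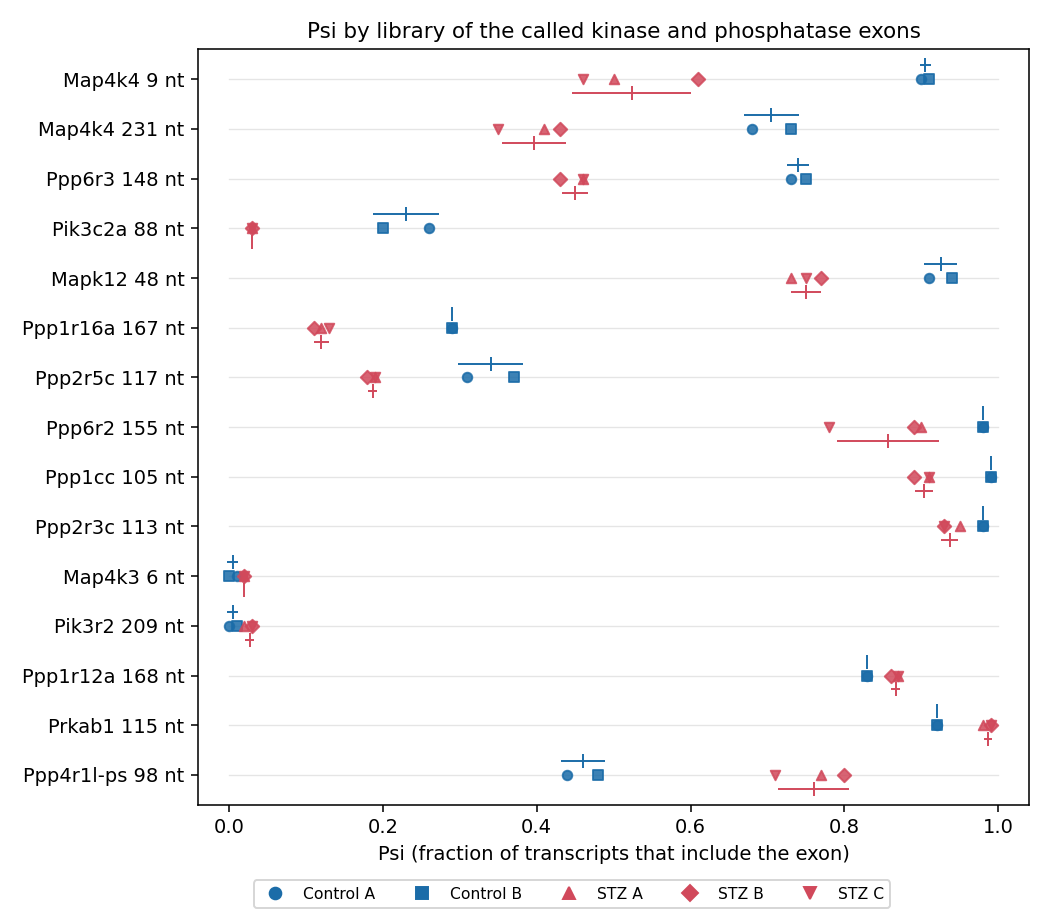
Psi on the x axis for the 15 called exons, 1 row per exon, with a marker per library (blue for Control, red for STZ) and the mean with its SD just above (Control) and below (STZ) the markers. The markers of the groups do not overlap in any row, and the largest falls are those of the 2 Map4k4 exons and of Ppp6r3.

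By family, assigned from the start of the gene symbol, 4 of 15 exons of the MAP kinase cascade were called (3 lower, 1 higher). These 15 include the 90-nt and 328-nt exons of Mapkap1, a subunit of the mTORC2 kinase complex, and neither was called. Of PI3 kinases 2 of 3 were called (1 lower, 1 higher), and of PKA and AMPK 1 of 5 (higher). For protein phosphatase 1 it was 3 of 8 (2 lower, 1 higher), and for protein phosphatases 2 to 6 it was 5 of 13 (4 lower, 1 higher). Differences between the families were not tested. Exons whose length is a multiple of 3, which leave the reading frame unchanged when skipped, made up 24 of the 44, and 7 of these 24 were called against 8 of the 20 others. Among all tested exons the called share was 15.7% for multiples of 3 and 14.4% for other lengths.

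**Figure D2:**
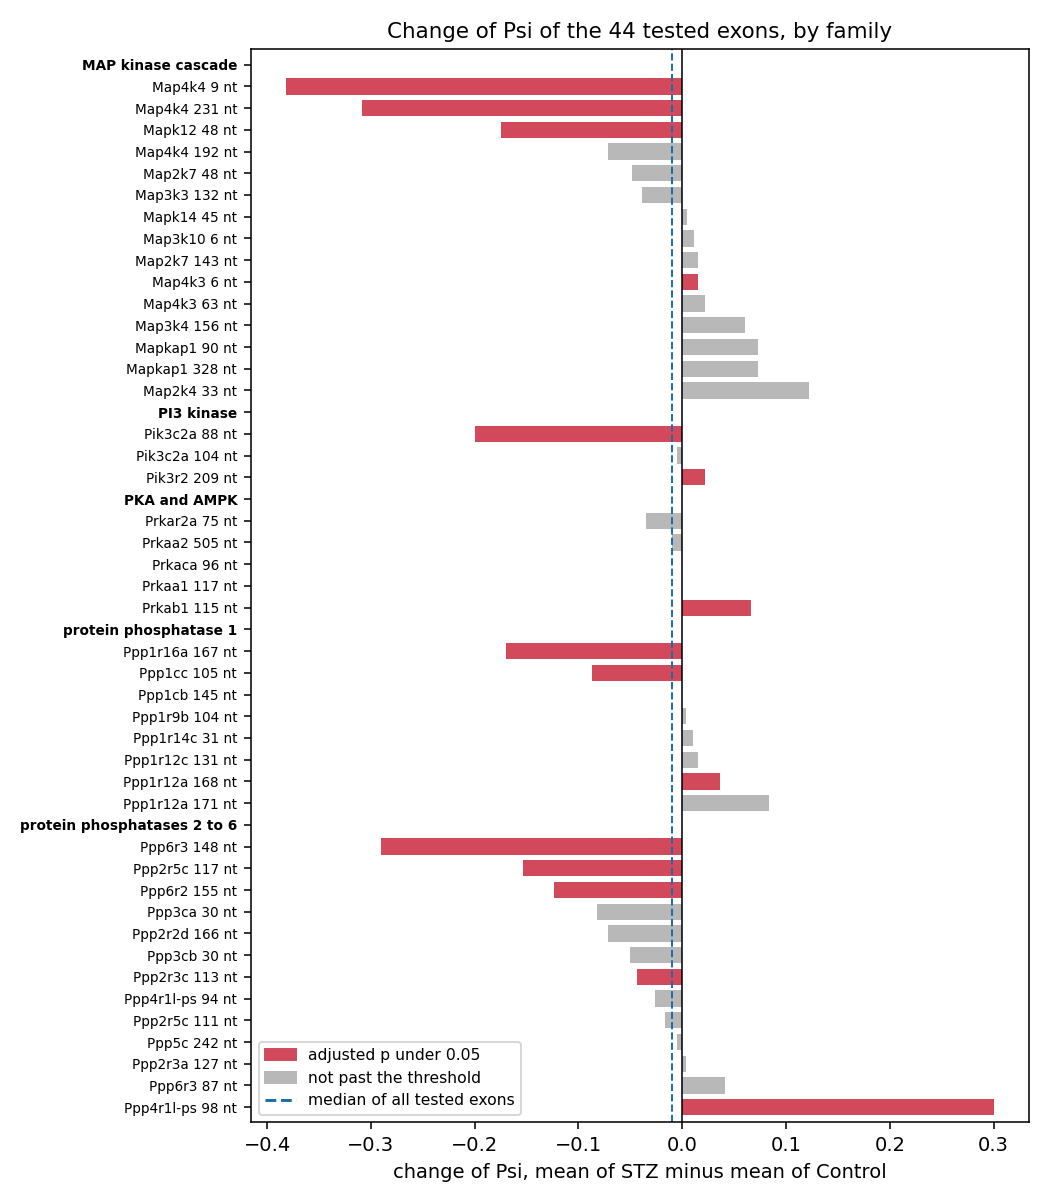
Change of mean Psi, STZ minus Control, for each of the 44 tested exons as a bar, grouped by family, with called exons in red, the others in grey and the median of all tested exons as a dashed line. The bars run from -0.382 (Map4k4, 9 nt) to 0.3 (Ppp4r1l-ps, 98 nt), and each family holds called and uncalled exons.

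Map4k4, a kinase at the head of MAP kinase cascades, had the largest falls. Its 9-nt exon adds 3 codons without changing the frame (1288 codons with it and 1285 without). Psi was 0.90 and 0.91 in Control A and B and 0.50, 0.61 and 0.46 in STZ A, B and C. Every STZ library was below both Control libraries. Inclusion and skipping were supported by 177 and 14 reads in Control A, 261 and 19 in Control B, 174 and 134 in STZ A, 169 and 86 in STZ B, and 133 and 125 in STZ C. The skipping reads thus rose from a small minority to nearly as many as the inclusion reads in STZ C. Mean Psi fell from 0.905 ± 0.00707 (SD, n = 2) to 0.523 ± 0.0777 (SD, n = 3), a logit change of -2.16 (SE 0.218, adjusted p = 0.0165, limma). The adjusted p rose to as much as 0.0933 with 1 library left out, and the call was lost without Control A, Control B, STZ A or STZ C.

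The 231-nt exon lies upstream of it in the same gene and also keeps the frame (1234 codons with it, 1157 without). Its Psi was 0.68 and 0.73 in Control and 0.41, 0.43 and 0.35 in STZ, with no overlap. Inclusion-only and exclusion-only reads summed to 1847 and 69 in Control and to 1811 and 238 in STZ. The mean fell from 0.705 ± 0.0354 to 0.397 ± 0.0416 (adjusted p = 0.0198, limma), and the call was lost without Control A, Control B, STZ A or STZ B (adjusted p up to 0.0931). As a share of the informative reads the exon went from 0.963 to 0.886, a smaller difference than in Psi, and it stayed called on that scale (adjusted p = 0.0255, limma). The share is not corrected for length, and a long exon collects more inclusion reads than a short one.

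The other tested Map4k4 exon, of 192 nt and downstream of these, did not pass the test. Its Psi was 0.50 and 0.63 in Control and 0.52, 0.54 and 0.42 in STZ, and the groups overlapped (change -0.0717, adjusted p = 0.522, limma). Control gave 1608 inclusion-only and 109 exclusion-only reads for it, and STZ gave 2235 and 177. The 3 exons share a gene and are not independent measurements of it.

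**Figure D3:**
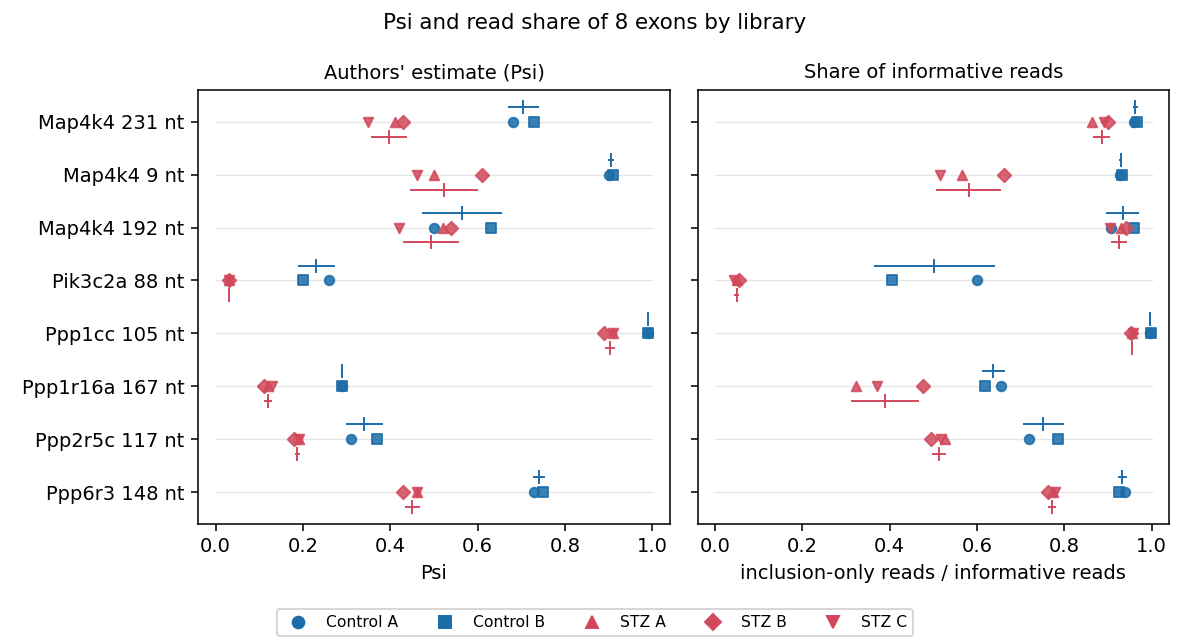
Psi (left) and inclusion-only reads as a share of informative reads (right) for 8 exons, with a marker per library and the mean with its SD above (Control, blue) and below (STZ, red). The 9-nt Map4k4 exon is separated alike on both scales, the 231-nt exon less on the right, and the 192-nt exon on neither.

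Mapk12 encodes p38 gamma, a MAP kinase abundant in striated muscle. Psi of its 48-nt exon was 0.91 and 0.94 in Control and 0.73, 0.77 and 0.75 in STZ. The STZ libraries lay close together below both Control libraries. Skipping would remove 16 of 367 codons and keep the frame. The mean fell by 0.175 (adjusted p = 0.024, limma). Exclusion-only reads were few, 0 of 100 informative reads in Control and 6 of 96 in STZ, and the Bayes factor in the authors' deposited table did not exceed 3.98. The call was lost without Control B, STZ A, STZ B or STZ C (adjusted p up to 0.0872).

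Map4k3, a related kinase, was called for a 6-nt exon whose Psi was 0.01 and 0 in Control and 0.02 in each STZ library. No library had an inclusion-only read there, and exclusion-only reads summed to 243 in Control and 201 in STZ. Inclusion of this exon was thus not detectable at this depth in either group, and 0 reads allow a share of informative reads of up to 1.23% in Control and 1.49% in STZ (3 counts of the total, counting error only). The adjusted p of 0.011 (limma) became 0.203 with Psi limited at 0.001, 1 at 0.05 and 0.217 on the read share, and the call was also lost without Control A or Control B (up to 0.0526).

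None of the 6 tested Map2k and Map3k exons passed the test. Map2k4, an activator of JNK and p38, had Psi of 0.59 and 0.54 in Control and 0.74, 0.71 and 0.61 in STZ for its 33-nt exon. All STZ values were above both Control values, but STZ C only by 0.02, and the adjusted p was 0.233 (limma) on 10 exclusion-only reads in STZ. Map2k7, which activates JNK, had Psi between 0.84 and 0.95 for its 48-nt exon (adjusted p = 0.461, limma) and between 0.96 and 0.99 for its 143-nt exon (0.365). The lengths of the 143-nt exon match both Map2k7 and an overlapping locus. Map3k3, an upstream kinase, had Psi of 0.97 and 1 in Control and 0.95, 0.95 and 0.94 in STZ for its 132-nt exon (adjusted p = 0.144, limma), with skipping supported by 2 reads in Control and 28 in STZ. Mapkap1, a subunit of the mTORC2 kinase complex, had higher Psi in every STZ library than in both Control libraries for its 90-nt and 328-nt exons. The changes were 0.0733 each, and neither passed (adjusted p = 0.16 and 0.208, limma). The 90-nt exon is the downstream flank of the 328-nt event and both have the same upstream flank, so they are not independent.

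Pik3c2a encodes a class II PI3 kinase of membrane traffic. Its 88-nt exon in the 5′ UTR had Psi of 0.26 and 0.20 in Control and 0.03 in each STZ library. No STZ value came near a Control value. Inclusion-only reads were 15 in each Control library and 1 in each STZ library, while exclusion-only reads were 10 and 22 in the Control libraries and 19, 17 and 22 in STZ. Few reads lay behind the change, yet it kept its call without each library in turn (adjusted p from 0.0147 to 0.0389; 0.00706 with all, limma). A 104-nt coding exon of the same gene gave 0.82 and 0.85 in Control and 0.78, 0.82 and 0.89 in STZ, and these values overlapped.

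Pik3r2, a regulatory subunit of class I PI3 kinases, rose from Psi of 0 and 0.01 to 0.02, 0.03 and 0.03 for a 209-nt exon that GENCODE places in a non-coding transcript. Inclusion stayed rare, with 1 inclusion-only read in Control and 10 in STZ. The adjusted p of 0.0456 (limma) became 0.165 with Psi limited at 0.001, 1 at 0.05 and 0.0549 without the read minimum, and the call was lost without Control A, Control B, STZ B or STZ C (up to 0.179).

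Among the subunits of AMPK and PKA only Prkab1 was called, the beta 1 subunit that holds the AMPK complex together. Psi of its 115-nt exon was 0.92 in both Control libraries and 0.98, 0.99 and 0.99 in STZ. Inclusion was thus nearly complete in STZ, and skipping, which shifts the frame to an early stop (176 codons in place of 270), was rarer. Skipping was supported by 10 reads beside 498 for inclusion in Control, and by 3 beside 656 in STZ. The adjusted p was 0.0305 (limma); it was 0.0839 on the read share, and up to 0.142 without Control A, Control B, STZ B or STZ C. Of the others, Prkaca, a PKA catalytic subunit, had Psi of 1 in all libraries, the AMPK catalytic subunit exons of Prkaa1 and Prkaa2 stayed within 0.01 in Psi, and Prkar2a, a PKA regulatory subunit, went from 0.98 and 0.99 to 0.97, 0.95 and 0.93 with no exclusion-only read in any library (adjusted p = 0.126, limma).

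Ppp1cc, a catalytic subunit of protein phosphatase 1, had the lowest adjusted p of the 44. Psi of its 105-nt exon was 0.99 in both Control libraries and 0.91, 0.89 and 0.91 in STZ. The STZ libraries agree within 0.02 and lie apart from Control. Skipping was supported by 9 and 7 reads in the Control libraries and by 90, 91 and 78 in STZ, and inclusion by 2599 and 3313 and by 1907, 1826 and 1744. The logit change was -2.36 (SE 0.087, adjusted p = 0.00309, limma; up to 0.0276 with a library left out). Skipping removes 35 of 323 codons and keeps the frame. In the authors' deposited table the lowest of its 6 Bayes factors was 2.8e+83, while its differences of Psi stayed between 0.08 and 0.1.

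Among the targeting subunits of that phosphatase, Ppp1r16a (MYPT3) fell at a 167-nt exon of the 5′ UTR. Psi was 0.29 in both Control libraries and 0.12, 0.11 and 0.13 in STZ, with no overlap. Inclusion-only and exclusion-only reads summed to 149 and 86 in Control and to 31 and 51 in STZ. The adjusted p was 0.0113 (limma), 0.0766 on the read share, and up to 0.0652 without Control A or Control B, where the call was lost.

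Ppp1r12a (MYPT1), which targets the phosphatase to myosin, rose at its 168-nt exon, with Psi of 0.83 in both Control libraries and 0.87, 0.86 and 0.87 in STZ (adjusted p = 0.0319, limma). The change of mean Psi was 0.0367, and the Bayes factors in the authors' deposited table were 0.14 to 0.17. The call was lost on the read share (0.414), with Psi limited at 0.001 (0.0686) and without Control A, Control B, STZ A or STZ C (up to 0.129). The neighbouring 171-nt exon had Psi of 0.92 and 0.84 in Control and 0.96, 0.97 and 0.96 in STZ and did not pass (adjusted p = 0.0761, limma). The 2 events use each other's exon as a flank, so they share reads.

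The 31-nt exon of Ppp1r12a near the 3′ end of its coding part, whose inclusion changes the frame, could not be tested. Its Psi read 0.10 and 0.05 in Control and 0.47, 0.68 and 0.37 in STZ, the largest change of any of the 51. Yet the STZ libraries had 0 informative reads and 3, 1 and 1 reads that fit both isoforms, and the Control libraries had 8 and 7 exclusion-only reads and no inclusion-only read. Reads that fit neither isoform were 346 and 356 in Control and 473, 291 and 291 in STZ. In STZ its Psi thus rests on almost no reads.

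For protein phosphatase 2A, the regulatory subunit Ppp2r5c fell at a 117-nt coding exon. Psi was 0.31 and 0.37 in Control and 0.19, 0.18 and 0.19 in STZ, with no overlap. Inclusion-only and exclusion-only reads were 203 and 79 in Control A, 289 and 79 in Control B, 92 and 83 in STZ A, 93 and 95 in STZ B, and 87 and 81 in STZ C. Skipping keeps the frame (485 codons in place of 524). The adjusted p was 0.024 (limma), and the call was lost without STZ A, STZ B or STZ C (up to 0.084). Another exon of the gene, of 111 nt, had Psi of 0.96 to 0.99 in all libraries and was not called.

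Ppp2r3c, another regulatory subunit, had Psi of 0.98 in both Control libraries and 0.95, 0.93 and 0.93 in STZ for a 113-nt exon (adjusted p = 0.0236, limma). No library held an exclusion-only read, so no read shows skipping in either group (a share of up to 0.647% in Control and 0.915% in STZ by the same limit), and inclusion was supported by 215 and 249 reads in the Control libraries and by 139, 103 and 86 in STZ. The call was lost with Psi limited at 0.05 (0.516), on the read share (0.102) and without Control A, Control B, STZ B or STZ C (up to 0.117).

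Both called regulatory subunits of protein phosphatase 6 fell at 5′ UTR exons. Psi of the 148-nt exon of Ppp6r3 was 0.73 and 0.75 in Control and 0.46, 0.43 and 0.46 in STZ. Inclusion-only and exclusion-only reads summed to 1314 and 97 in Control and to 1333 and 393 in STZ, so the inclusion reads were alike in sum and the skipping reads were not. The logit change was -1.25 (SE 0.0616, adjusted p = 0.00545, limma), and it held without each library (up to 0.0299). Psi of the 155-nt exon of Ppp6r2 was 0.98 in both Control libraries and 0.90, 0.89 and 0.78 in STZ, with STZ C the lowest, with skipping supported by 0 reads in Control and 11 in STZ (adjusted p = 0.0409, limma). That call was lost with Psi limited at 0.05 (0.196) and without Control A, Control B, STZ A or STZ B (up to 0.173). A coding 87-nt exon of Ppp6r3 had overlapping values of 0.76 and 0.89 in Control and 0.92, 0.84 and 0.84 in STZ.

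By place in the matched transcripts, a grouping made after the values were seen, 6 of the 44 exons lay wholly in a 5′ UTR and 4 of these fell, those of Pik3c2a, Ppp1r16a, Ppp6r2 and Ppp6r3. The 2 others, of Mapk14 (45 nt) and Mapkap1 (90 nt), were not called. Of 28 coding exons 8 were called, 6 lower and 2 higher. Of all tested exons, wherever they lie, 15.0% were called and 10.1% were called lower; the called share of all 5′ UTR exons was not computed, and the difference between the places was not tested.

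The largest rise was in the pseudogene Ppp4r1l-ps, related to a regulatory subunit of protein phosphatase 4. Psi of its 98-nt exon was 0.44 and 0.48 in Control and 0.77, 0.80 and 0.71 in STZ, with no overlap. Control gave 59 inclusion-only and 17 exclusion-only reads, and STZ gave 67 and 9. The adjusted p was 0.0302 (limma), and the call was lost on the read share (0.284) and without Control A, Control B, STZ A or STZ B (up to 0.133).

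Calcineurin, the calcium-activated phosphatase of cardiac growth signalling, has 2 catalytic genes with a 30-nt exon of nearly the same sequence. The exons of Ppp3ca and Ppp3cb are identical at 26 of 30 bases. Counted from the 5′ end of the exon, with the base of Ppp3ca first, they differ by T2C, T5A, T26A and G27A, and both keep the frame. Psi was 0.75 and 0.72 in Control and 0.70, 0.71 and 0.55 in STZ for Ppp3ca, and 0.94 and 0.94 in Control and 0.94, 0.92 and 0.81 in STZ for Ppp3cb. STZ C was the lowest library for both exons and the other STZ libraries lay within 0.05 of Control. Neither was called (adjusted p = 0.43 and 0.523, limma). In STZ C the exclusion-only reads were 97 of 261 informative reads for Ppp3ca and 20 of 205 for Ppp3cb.

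The other tested exons that were not called held near 0 or 1 or had overlapping groups, with some exceptions. Psi was at most 0.04 in every library for the exons of Map3k10 (6 nt), Mapk14, Ppp1cb, Ppp1r14c, Ppp1r9b and Ppp2r3a, and at least 0.96 for those of Ppp1r12c and Ppp5c, a phosphatase that binds chaperones. Ppp1r12c was higher in each STZ library, with Psi of 0.98 and 0.99 in Control and 1 in STZ (adjusted p = 0.412, limma). Overlapping values were found for Map3k4 (0.34 to 0.49), the 63-nt exon of Map4k3 (0.43 to 0.83), the 166-nt exon of Ppp2r2d (0.76 to 0.89) and the 94-nt exon of Ppp4r1l-ps (0.84 to 0.93).

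The 7 exons without the reads to be tested were that of Ppp1r12a above and those of Map4k5 (3 nt), Mapk8ip3 (18 nt), Ppp1r1a (61 nt), Ppp2r2d (62 nt), Ppp3cc (27 nt) and Ppp4r1l-ps (277 nt). Ppp1r1a, an inhibitor of phosphatase 1 that PKA switches on, had Psi of 0.91 and 0.96 in Control and 0.86, 0.73 and 0.89 in STZ with no exclusion-only read in any library. Ppp3cc, the remaining calcineurin catalytic gene, ranged from 0.05 to 0.17 with overlapping groups. The 62-nt exon that the tables name Ppp2r2d matches Ppp2r2a by its lengths, so its gene is uncertain, and its Psi was 0.01 to 0.02.

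In the authors' deposited table, 3 of the 51 exons (5.88%) differed in Psi by 0.20 or more, with Bayes factors of 10 or more, in each of the 6 comparisons, against 3.22% of all 6331. They were the 9-nt and 231-nt exons of Map4k4 and the 148-nt exon of Ppp6r3, all lower in STZ and all also called. For other called exons the highest Bayes factor stayed under 10. It was 0.07 for Map4k3 (6 nt), 0.17 for Ppp1r12a (168 nt) and Ppp2r3c, 0.91 for Pik3r2, 3.98 for Mapk12 and 9.28 for Ppp6r2. Prkab1 and Ppp4r1l-ps (98 nt) reached 10 in only some comparisons. Ppp1cc, Ppp1r16a, Ppp2r5c (117 nt) and Pik3c2a (88 nt) reached it in all 6, with smaller differences of Psi. The 6 comparisons reuse the same 5 libraries.

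The number of reads over each event was described without a test. It counts reads that fit at least 1 isoform, per 1000000 such reads over all events of the library. It covers an exon and its flanks and is not a level of the gene, as events of a gene can differ. For Ppp1r12a the ratio of STZ to Control means was 1.59 and 1.5 over the 168-nt and 171-nt events. Over its untested 31-nt event it was 0.0549. For 17 of the 44 exons the STZ values lay below both Control values and for 12 above, 65.9% in all, where 67.5% of all tested exons did not overlap. Prkaca read 279 and 308 in Control and 163, 113 and 129 in STZ. Prkar2a read 43.9 and 46.4 in Control and 31.2, 13.9 and 20.8 in STZ, and Prkaa2 read 253 and 314 in Control and 178, 83.4 and 57.3 in STZ. These 3 of the 5 tested PKA and AMPK exons were lower in reads in every STZ library, with changes of Psi of 0 (Prkaca), -0.035 (Prkar2a) and -0.01 (Prkaa2), none of them called. Prkab1, whose exon was called, was higher, at 29.5 and 27.7 in Control and 36.1, 30.2 and 31.2 in STZ, and Prkaa1 overlapped between the groups. Ppp1r12c, a targeting subunit of phosphatase 1, read 55.6 and 56.9 in Control and 178, 173 and 159 in STZ. Ppp1cc, whose exon was called, read 482 and 495 in Control and 502, 487 and 509 in STZ. In bulk tissue, fewer cells of a type and less RNA per cell cannot be told apart.

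**Figure D4:**
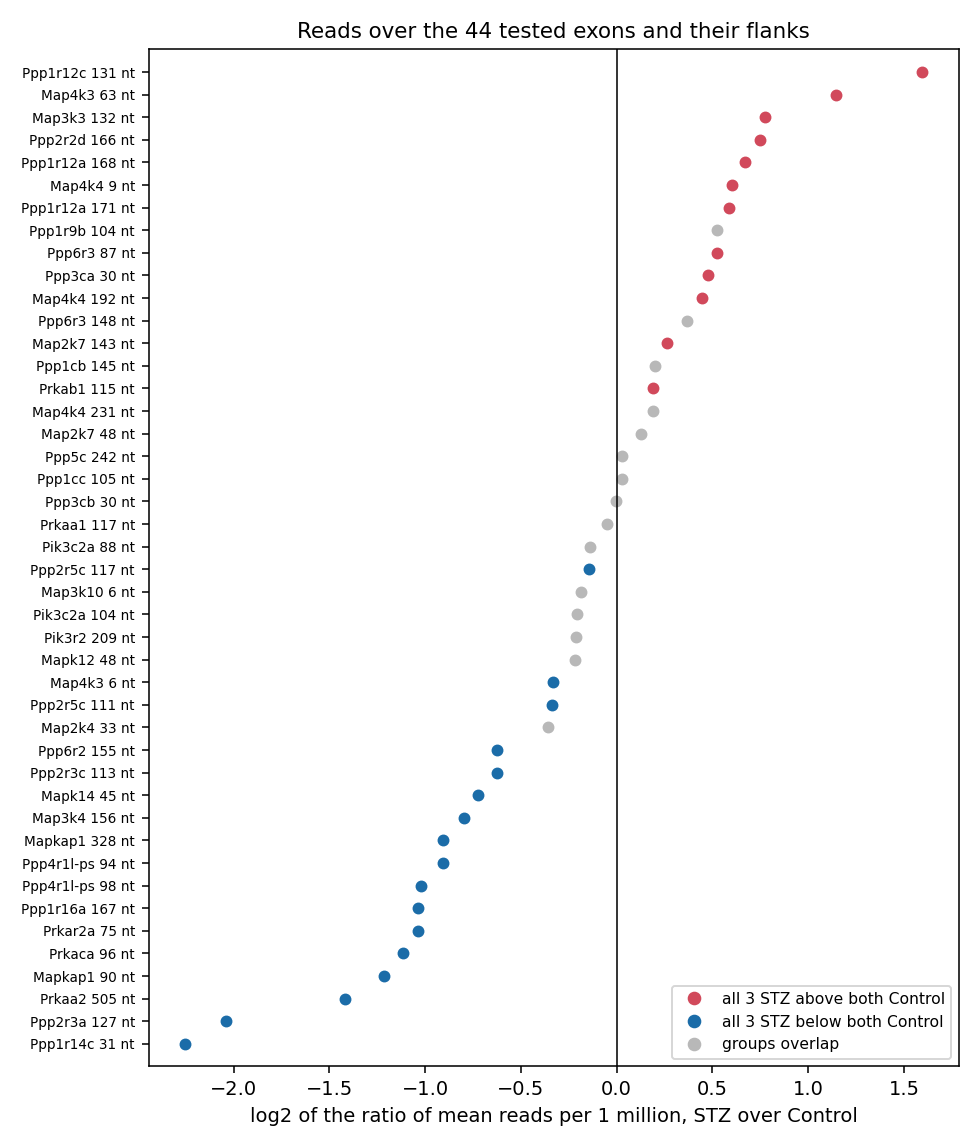
Log2 of the ratio of mean reads per 1000000 over each tested event, STZ over Control, 1 point per exon, coloured by whether the 3 STZ libraries lie above (red) or below (blue) both Control libraries or overlap (grey). Ppp1r14c and Ppp2r3a lie lowest and Ppp1r12c highest.

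Markers of some cell types differed between the groups on the same scale, while those of smooth muscle and leukocytes overlapped. The summed events of 4 of 12 cardiomyocyte markers (Ldb3, Pln, Tnnt2 and Ttn) read 129773 and 128377 in Control and 60696 to 67200 in STZ. Pecam1, the endothelial marker with an event of 6 listed, read 1726 and 1931 in Control and 4415 to 7232 in STZ. Smooth muscle (2 of 5 listed) read 421 to 425 in Control and 421 to 541 in STZ, fibroblast and matrix (2 of 7) 108 to 127 and 58.5 to 90.1, and leukocyte markers (2 of 6) 65.2 to 67.2 and 58 to 121, with Ptprc at 0 in STZ C; none of 3 adipocyte markers had an event. The part of these shifts in the changes of Psi was not tested.

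Other signalling genes, 131 listed by name (Akt, Raf, Rock, calmodulin kinase and protein kinase C genes, anchoring proteins and others), had 41 tested exons in 35 genes. Of these 41 exons 5 were called, 1 higher and 4 lower. That is 12.2%, where 15.0% of all tested exons were called. Strn3, a scaffold subunit of phosphatase 2A complexes, rose at a 111-nt exon from Psi of 0.01 and 0.03 to 0.27, 0.31 and 0.42 (adjusted p = 0.0279, limma). Mprip, which binds the myosin phosphatase, fell at a 66-nt exon from 0.96 in both Control libraries to 0.84, 0.82 and 0.82 (adjusted p = 0.00267, limma). The other falls were in Traf6 (203 nt), Rps6ka5 (116 nt) and Akap2 (179 nt), with changes of -0.712, -0.352 and -0.252. The median change was -0.0217 over the 41 and -0.01 over all tested exons. The list's difference from the kinase and phosphatase exons was not tested.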

How the data were processed

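Left ventricular RNA of 2 Control and 3 STZ mouse samples was sequenced, with CASAVA 1.8.2, TopHat (version not given in the sources used here) and build mm9 named in the submitters' processing notes. The authors' Psi values are fractions from 0 to 1 with 2 decimals, the posterior means of MISO per the file headers. The authors deposited read counts in 4 classes per exon and library. Bayes factors, a ratio of evidence, were used as deposited, with 8 infinite values. A further 36 columns of values per library were not used.

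Of 6616 exons, the 6331 in all 6 tables were kept. Gene names came from the tables for 36 members and from exon and intron lengths in GENCODE M21 for 15, and 47 of the 51 matched a GENCODE exon. Where both gave a gene, 97.6% of 3348 exons had the same one. Psi was limited to 0.01 to 0.99 and its logit compared with limma 3.58.1 (R 4.3.3) with a variance trend on informative reads and Benjamini-Hochberg adjustment over all tested exons, with no covariate. The steps were checked on simulated data. Named exons are all called members and those past the authors' rule; others are named by family and by gene with 3 tested exons, and the rest after their values were seen. The members and lists were chosen with earlier results of these data known. Alternatives covered the limits of Psi, the read minimum, the variance model, the read share and each library left out. Reads that fit at least 1 isoform numbered 6741244 to 11431749 per library, and reads in overlapping events are counted in each. The number of reads limits the precision of Psi.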

Additional observations from a re-analysis of the deposited data

How the results depend on the processing

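The count of 15 called exons was 12 to 15 under the other limits of Psi, read minimums and variance models, not always with the same exons. With Psi limited at 0.001, 12 of 15 were shared with the main fit, and at 0.05, 11 of 12. On the read share 15 were called, of which 9 were among the 15 called on Psi. Of these 15, 4 were higher, 9 lower and the rest unchanged in share. That test adds 0.5 to each read class, so with reads of a single isoform its logit follows depth. Without each library in turn, it ranged from 6 to 9. Called exons with a change of at least 0.10 numbered 9 on Psi, 4 on the read share and 3 to 5 without each library. The median change stayed between -0.01 and 0 in these fits. With the difference in the authors' rule lowered to 0.10, 6 exons passed in place of 3, and a Bayes factor of at least 20 left 3. Chosen after the data were seen, leaving out the comparisons of each library gave 3 to 4, and leaving out the called exons with reads of a single isoform (Map4k3, Ppp2r3c) gave 13. Adding the exons that the tables list as jnk1, Mek5 and Smek1, whose present symbols would meet the rule, left 15. No paired analysis was possible because the library codes carry no replicate numbers of the labels. Of the settings tried on single exons, 57 fits ended a call and none turned a direction. Depth limits the exons with few exclusion-only reads, and 7 members had too few informative reads to be tested.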
